A study of Mus musculus with 16 samples.

Results

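The genes of the major histocompatibility complex (MHC) and of antigen presentation were taken from the gene tables of RNA sequencing libraries made from sorted cells of mouse dorsal root ganglia. Every symbol starting with H2-, the prefix of the mouse MHC, was included, together with B2m, Tap1, Tap2, Tapbp, Cd74, Ciita, Psmb8, Psmb9 and Psmb10. This gave 51 of the 22609 genes in the tables, of which 42 carried the H2- prefix. A count was present in some library for 43 of them, and 30 passed the filter on low counts that was applied to all genes. The genes H2-Ke2, a prefoldin subunit, and H2-Ke6, a hydroxysteroid dehydrogenase, lie in the MHC and share the prefix but encode no MHC molecule, so they are described apart. In the GRCm38 annotation the H2- genes that it lists lie on chromosome 17, as do Tap1, Tap2, Tapbp, Psmb8 and Psmb9, while B2m lies on chromosome 2, Psmb10 on 8, Ciita on 16 and Cd74 on 18.

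MHC class I molecules display peptides from inside the cell to CD8 T cells. They consist of a heavy chain and the light chain B2m, and they are loaded in the endoplasmic reticulum with peptides that the proteasome has cut and the Tap1 and Tap2 transporter has carried in. MHC class II molecules display peptides from taken-up material to CD4 T cells. Their alpha and beta chains assemble on the invariant chain Cd74, exchange its remnant for peptide with the help of H2-DM, and are made chiefly by dendritic cells, macrophages and B cells under the control of Ciita. Nearly all cells with a nucleus make class I, neurons at a low level at rest.

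The study compared 4 groups of 4 libraries. The mice were males of 8 to 16 weeks with floxed alleles of Ltbr, the lymphotoxin-beta receptor gene, which all groups shared. The PTX CKO group (labelled Nav1.8/LTbR CKO) carried in addition a Cre recombinase driven by Nav1.8, a sodium channel of pain-sensing neurons, and had received paclitaxel (PTX), a microtubule-stabilising chemotherapy drug. The PTX fl/fl group (labelled LTbR-fl/fl) had received PTX and carried the floxed alleles without Cre. The vehicle CKO and vehicle fl/fl groups had the same genotype labels and a treatment label of water. PTX was injected into the peritoneum 3 times at 6 mg per kg, 2 days apart. A fluorescent wheat germ agglutinin tracer entered the paw at day 16 and ganglia L3 to L5 were taken at day 18 after the last injection, and tracer-positive cells were sorted by flow cytometry. The design text states an n of 3 per group, whereas the labels give 4 libraries. The labels do not say that they came from separate mice, so p-values measure the spread between libraries, which may be technical. The treatment text describes PTX for all 16 libraries, and vehicle libraries were recognised by their treatment label and title.

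The libraries held 7906504 to 11668007 gene counts, and the 51 genes took 0.200 to 0.973% of them. Libraries carry dates in their titles. Replicates 1 and 2 of each group share an earlier date and replicates 3 and 4 a later date. PTX and vehicle libraries share no date, so date and treatment cannot be told apart, while each date holds both genotype labels. The labels do not say what the dates mark. Ltbr itself was not lower under the CKO label (5.88 to 28.4 CPM, counts scaled to the same total in every library, in PTX CKO and 6.06 to 15.6 CPM in PTX fl/fl, 32.3 to 99.0 CPM in vehicle CKO and 42.4 to 51.4 CPM in vehicle fl/fl), so genotype is given as labelled. Markers fixed for other cell types were present although the sort was meant for traced neurons. The summed neutrophil markers had a median of 31021 CPM in PTX CKO, 29341 CPM in PTX fl/fl, 164120 CPM in vehicle CKO and 132310 CPM in vehicle fl/fl. The summed sensory neuron markers stood at 14685, 18480, 3462 and 3688 CPM in the same order. In such bulk libraries fewer cells of a type and less RNA per cell cannot be told apart.

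The class I heavy chain genes resemble each other, which bears on their counts. Reads were 50 bases long and 39.5 to 44.2% of the counted alignments were set aside as not unique. The following stretch of exon 4 of H2-K1 (GRCm38, chr17:33997449-33997498, minus strand, coding) is shown because it occurs unchanged in transcripts of 9 other genes of the set: H2-Bl, H2-D1, H2-K2, H2-Q1, H2-Q10, H2-Q2, H2-T22, H2-T23 and H2-T24.
H2-K1 exon 4: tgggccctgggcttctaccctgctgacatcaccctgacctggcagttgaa
A read from this stretch cannot be given to H2-K1 or to any of the others. Among 26 heavy chain genes in the GENCODE annotation, a median of 9.59% of all 50-base windows was shared with another gene (range 0 to 53.5%, the highest being H2-T22). Among 9 class II chain genes the median was 0.514% and the highest 25.9%, for H2-DMb2. B2m, Cd74, H2-Ab1 and H2-Eb1 shared none. H2-Ke6 shared 70.5% of its windows. A window counted as shared if any other annotated gene held it on either strand, so overlapping transcripts of the same place count too. Which gene shares those of H2-Ke6, and what this means for its counts, was not tested.

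No promoter was found for H2-Ab1, the class II chain with the most counts (47330, against 41692 for H2-Aa). The promoters of 6 other genes of the set, a list fixed by hand, are printed. They are from RefSeq (GRCm38.p6, 250 bases before to 50 after the annotated start, in the direction of the gene). Capitals mark matches to a kappa B motif (GGGA and CC, separated by 4 bases of which the second is T), an interferon response motif (TTTCNNTTC) and an inverted CCAAT box (GATTGG), each searched on both strands. The 2 kappa B matches of H2-K1 overlap each other on opposite strands, and so do those of H2-D1.
H2-K1 (chr17:34000298-34000597, minus strand): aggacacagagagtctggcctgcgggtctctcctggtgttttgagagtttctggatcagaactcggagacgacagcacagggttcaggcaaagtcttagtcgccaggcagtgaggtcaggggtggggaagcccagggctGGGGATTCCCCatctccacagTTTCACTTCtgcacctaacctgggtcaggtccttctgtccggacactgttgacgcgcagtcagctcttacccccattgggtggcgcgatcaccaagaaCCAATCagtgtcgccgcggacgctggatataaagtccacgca
H2-D1 (chr17:35262844-35263143, plus strand): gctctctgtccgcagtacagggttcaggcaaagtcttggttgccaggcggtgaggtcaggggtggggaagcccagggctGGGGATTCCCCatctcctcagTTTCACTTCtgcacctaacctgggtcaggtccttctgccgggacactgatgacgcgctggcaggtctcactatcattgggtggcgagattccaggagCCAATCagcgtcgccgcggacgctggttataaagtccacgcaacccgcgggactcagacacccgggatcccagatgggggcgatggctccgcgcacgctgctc
H2-Q10 (chr17:35469839-35470138, plus strand): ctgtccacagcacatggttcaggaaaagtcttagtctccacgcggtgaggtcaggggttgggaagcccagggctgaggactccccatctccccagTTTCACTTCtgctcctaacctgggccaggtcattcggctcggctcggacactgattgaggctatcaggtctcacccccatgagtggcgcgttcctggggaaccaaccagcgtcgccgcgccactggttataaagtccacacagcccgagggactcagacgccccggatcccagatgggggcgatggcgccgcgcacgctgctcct
B2m (chr2:122147437-122147736, plus strand): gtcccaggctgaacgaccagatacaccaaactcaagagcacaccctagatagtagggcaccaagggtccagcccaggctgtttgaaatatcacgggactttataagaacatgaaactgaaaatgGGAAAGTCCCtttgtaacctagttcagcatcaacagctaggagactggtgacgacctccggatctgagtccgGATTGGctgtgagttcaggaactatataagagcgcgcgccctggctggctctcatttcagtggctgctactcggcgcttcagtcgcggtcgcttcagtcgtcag
H2-Aa (chr17:34287774-34288073, minus strand): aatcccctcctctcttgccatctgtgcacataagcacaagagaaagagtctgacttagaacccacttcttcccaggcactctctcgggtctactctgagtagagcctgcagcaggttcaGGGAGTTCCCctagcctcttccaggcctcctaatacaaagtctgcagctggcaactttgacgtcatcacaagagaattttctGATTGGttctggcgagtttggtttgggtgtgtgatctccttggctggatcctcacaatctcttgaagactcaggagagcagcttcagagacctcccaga
H2-Eb1 (chr17:34305617-34305916, plus strand): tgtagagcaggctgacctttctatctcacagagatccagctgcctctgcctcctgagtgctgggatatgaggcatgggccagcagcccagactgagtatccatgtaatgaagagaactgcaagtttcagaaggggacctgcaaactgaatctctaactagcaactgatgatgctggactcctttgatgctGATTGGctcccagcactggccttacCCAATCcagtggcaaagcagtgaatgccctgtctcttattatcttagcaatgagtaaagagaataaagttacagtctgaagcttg
H2-K1 and H2-D1 hold all 3 motifs in the same order. The printed H2-Q10 promoter has the interferon response match but no kappa B or CCAAT match. H2-Aa and H2-Eb1 have no interferon response match in this window. A promoter was found for 36 of the 51 genes. Of 27025 promoters in the table, 4.13% hold the kappa B motif, 7.56% the interferon response motif and 16.6% the CCAAT motif. Of the 6 heavy chain genes that passed the filter and had a promoter, 4, 5 and 4 held these motifs. Of the 7 class II chain genes of the same kind, 1, 0 and 6 held them. A match describes letters and is not a bound site.

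Per kilobase of exon (GRCm38 annotation, which is not the build the reads were counted on), B2m had the highest level of the set, at 1705, 1234, 2814 and 3156 CPM per kb as the mean of PTX CKO, PTX fl/fl, vehicle CKO and vehicle fl/fl. H2-D1 followed with 402, 383, 743 and 647 CPM per kb. H2-K1, the other classical heavy chain, had 137, 125, 212 and 207 CPM per kb. The order of class I and class II genes depended on the group. Cd74 had 54.6 and 59.1 CPM per kb in the PTX groups, below H2-K1, against 347 and 405 CPM per kb in the vehicle groups, above it. All further levels are CPM, without length correction, and are compared only between libraries.

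PTX against vehicle in fl/fl. Class II chains and most class I genes had lower levels in the PTX libraries, and 2 genes passed the threshold, both lower: B2m, the class I light chain, and H2-Ke6, which is no MHC molecule. The threshold is an adjusted p of 0.05 from the two-sided quasi-likelihood test of edgeR, with Benjamini-Hochberg adjustment over 14200 genes (called "edgeR adjusted p" below). Called genes were 4.96% of all genes tested in either direction and 1.76% in the lower direction, against 2 of 30 here, and no gene of the set was called higher, against 3.20% of all genes. The log2 fold change was below 0 for 27 of the 30, against 50.2% of all genes, and its median was -1.19 against -0.0074 over all genes. At an unadjusted p under 0.05, 11 of 30 were lower and 0 higher, where 8.24% of all genes were lower and 11.3% higher. PTX and vehicle libraries did not overlap for 8 of 30, all lower, against 7.80% of all genes that were lower without overlap and 11.0% that were higher. The 30 include H2-DMb2 and H2-Ob, which passed the filter through vehicle libraries, so their lower levels were favoured in advance. H2-Ob is among the 11 and H2-DMb2 among the 8.

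B2m had 656, 719, 1431 and 1439.9 CPM in the PTX fl/fl libraries, against 3313, 3592, 1679.6 and 2271 CPM in the vehicle fl/fl libraries. Every PTX library lay below every vehicle library, and within both treatments the dates formed 2 levels. The means were 1061 ± 433 and 2714 ± 894 CPM (SD, n = 4 each). The log2 fold change was -1.35 ± 0.38 (SE, edgeR adjusted p = 0.0471). The call was lost when PTX fl/fl replicate 1, 2 or 3 or vehicle fl/fl replicate 1, 2 or 4 was left out (edgeR adjusted p of 0.0512 to 0.167), and when the 8 fl/fl libraries were fitted alone (edgeR adjusted p = 0.0868). So was it when the earlier PTX date was left out (log2 fold change -0.94, edgeR adjusted p = 0.431). Over the 17 alternatives the edgeR, limma or DESeq2 adjusted p ranged from 0.000225 to 0.431, and the fold change was below 0 in every one of them.

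**Figure D1:**
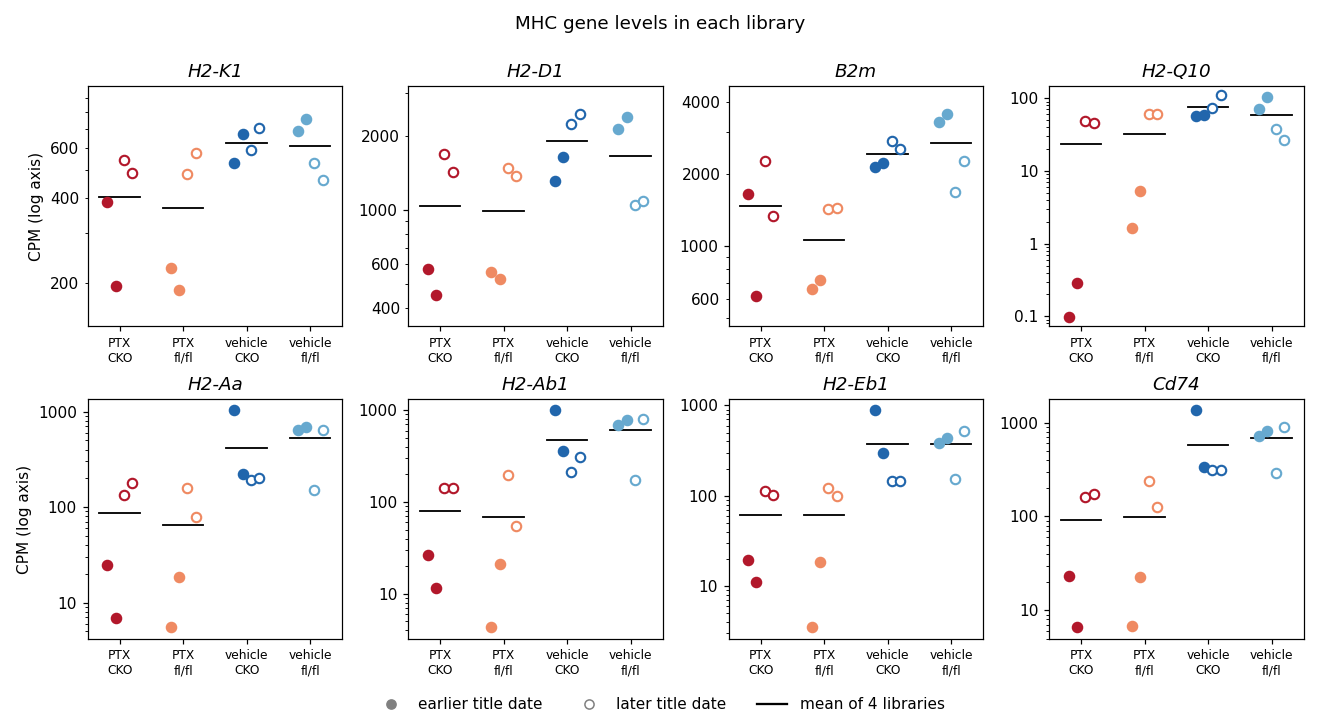
CPM of 8 genes in each of the 16 libraries on log axes, with PTX CKO, PTX fl/fl, vehicle CKO and vehicle fl/fl from left to right; filled points are the earlier title date, open points the later one, and bars are means of 4 libraries. For H2-Q10 the 4 filled PTX points lie at 0.0985 to 5.27 CPM and the 4 open PTX points at 46.2 to 60.04 CPM, within the range of the vehicle libraries.

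The classical heavy chains H2-K1 and H2-D1, which present peptides to CD8 T cells, were not called. H2-K1 had 226, 189, 485 and 574 CPM in PTX fl/fl, against 686, 758, 529 and 460.4 CPM in vehicle fl/fl. H2-D1 had 559, 523, 1484 and 1380.3 CPM in PTX fl/fl, against 2133, 2399.8, 1052 and 1092 CPM in vehicle fl/fl. For both genes the earlier PTX libraries were the lowest, while the later PTX libraries lay among the later vehicle libraries (H2-K1) or above them (H2-D1), so the groups overlapped. The log2 fold changes were -0.72 ± 0.36 for H2-K1 (edgeR adjusted p = 0.291) and -0.76 ± 0.46 for H2-D1 (edgeR adjusted p = 0.4). Over the 11 heavy chain genes tested, 10 had a fold change below 0, with a median of -0.76, and none was called.

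The nonclassical heavy chain H2-T23 encodes Qa-1, a ligand of inhibitory receptors on natural killer cells. It had 15.9, 15.9, 84.9 and 107 CPM in PTX fl/fl, against 185, 289, 68.6 and 79.2 CPM in vehicle fl/fl. H2-Q10, a heavy chain secreted by the liver, had 1.66, 5.27, 59.7 and 60.04 CPM in PTX fl/fl, against 70.5, 103, 37.7 and 26.6 CPM in vehicle fl/fl. In both genes the earlier PTX date stood apart and the later PTX date lay within the vehicle range. The log2 fold changes were -1.47 ± 0.75 and -0.91 ± 1.28 (edgeR adjusted p = 0.302 and 0.756). H2-T24 had 13.2 ± 2.70 CPM in PTX fl/fl and 14.3 ± 4.96 CPM in vehicle fl/fl, a log2 difference of -0.12 ± 0.67. H2-M3, which presents formylated peptides, had 12.1, 16.3, 10.1 and 7.52 CPM in PTX fl/fl, against 0.109, 10.5, 0.0824 and 17.6 CPM in vehicle fl/fl, and its log2 fold change of 0.70 ± 1.57 was the highest of the set. The pseudogene H2-K2 had 2.49, 2.81, 13.7 and 27.7 CPM in PTX fl/fl, against 23.8, 35.2, 22.3 and 16.3 CPM in vehicle fl/fl, with overlap.

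The genes of peptide loading had log2 fold changes below 0, and none of the 3 was called. Tap1 had 14.8, 15.03, 48.8 and 69.2 CPM in PTX fl/fl, against 131, 90.8, 41.2 and 44.9 CPM in vehicle fl/fl. Tap2 had 47.2, 66.5, 89.4 and 73.3 CPM in PTX fl/fl, against 161, 238, 90.5 and 92.6 CPM in vehicle fl/fl, with no overlap between the groups. The log2 fold changes were -1.06 ± 0.57 (edgeR adjusted p = 0.325) and -1.07 ± 0.39 (edgeR adjusted p = 0.131). Tapbp, the tapasin that bridges the transporter and the heavy chain, had 203, 188, 244 and 200.1 CPM in PTX fl/fl, against 242, 315, 219.5 and 241 CPM in vehicle fl/fl. Its log2 fold change was -0.29 ± 0.26 (edgeR adjusted p = 0.594), and its groups overlapped. Whether Tapbp and the transporter genes differ in response was not tested.

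The immunoproteasome subunits, which replace constitutive subunits and favour peptides that fit class I, gave fold changes on both sides of 0. Psmb9 had 8.72, 9.32, 31.9 and 17.7 CPM in PTX fl/fl, against 67.1, 96.8, 19.1 and 24.03 CPM in vehicle fl/fl, a log2 fold change of -1.61 ± 0.65 (edgeR adjusted p = 0.174). Psmb8 had 69.3, 66.4, 74.5 and 113 CPM in PTX fl/fl, against 179, 188, 96.4 and 96.9 CPM in vehicle fl/fl, a log2 fold change of -0.79 ± 0.30 (edgeR adjusted p = 0.151). Psmb10 had 73.7, 63.1, 28.8 and 81.2 CPM in PTX fl/fl, against 52.9, 52.3, 70.4 and 42.6 CPM in vehicle fl/fl, a log2 fold change of 0.18 ± 0.42. None of the 3 passed the threshold. Psmb9 takes the place of Psmb6, and the log2 ratio of Psmb9 to Psmb6 CPM, read only between libraries since lengths differ, was -5.13, -4.93, -2.47 and -3.53 in PTX fl/fl, against -1.01, -0.52, -3.23 and -2.76 in vehicle fl/fl. For Psmb8 over Psmb5 it was -0.69, -0.53, 0.38 and 2.18 in PTX fl/fl, against 1.73, 1.54, 0.73 and 0.82 in vehicle fl/fl, where a single PTX library, with the lowest Psmb5, was the highest of all 8.

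The class II chains had the fold changes farthest below 0, and none passed the threshold. The fold change was below 0 for 8 of 8 class II chains, with a median of -2.90 on the log2 scale. H2-DMb2 and H2-Ob are among the 8. They had at most 0.703 and 1.75 CPM in any PTX library and passed the filter through vehicle libraries, so their signs add no support. H2-Aa, the alpha chain of the I-A molecule, had 5.56, 18.7, 158 and 78.1 CPM in PTX fl/fl, against 641, 690.2, 151 and 637 CPM in vehicle fl/fl. H2-Ab1, its beta chain, had 4.32, 21.3, 196 and 55.5 CPM in PTX fl/fl, against 683, 788, 174 and 801 CPM in vehicle fl/fl. H2-Eb1, the beta chain of I-E, had 3.49, 18.4, 122 and 99.96 CPM in PTX fl/fl, against 384, 442, 155 and 523 CPM in vehicle fl/fl. All 3 genes followed one pattern: replicate 3 was the highest of the PTX libraries and the lowest of the vehicle libraries, where the groups met or nearly met. Their log2 fold changes were -3.02 ± 1.07, -3.14 ± 1.03 and -2.62 ± 0.99 (edgeR adjusted p = 0.13, 0.1 and 0.155). H2-Ea-ps, annotated by RefSeq as a pseudogene, had no count in any library.

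Cd74, the invariant chain, had 6.89, 22.8, 241 and 126 CPM in PTX fl/fl, against 714, 823, 291 and 893 CPM in vehicle fl/fl. H2-DMa had 5.90, 8.53, 8.07 and 7.21 CPM in PTX fl/fl, against 26.1, 40.5, 17.1 and 89.2 CPM in vehicle fl/fl. H2-DMb1, the partner of H2-DMa in the peptide exchange factor, had 0.166, 2.55, 21.3 and 0 CPM in PTX fl/fl, against 46.2, 55.2, 21.7 and 41.2 CPM in vehicle fl/fl. The groups did not overlap for any of these 3 genes. The PTX libraries of H2-DMa and of H2-DMb1 overlapped between the dates, while those of Cd74, H2-Aa, H2-Ab1 and H2-Eb1 did not. The log2 fold changes were -2.78 ± 1.07 for Cd74, -2.54 ± 0.83 for H2-DMa and -2.77 ± 1.45 for H2-DMb1 (edgeR adjusted p = 0.16, 0.0941 and 0.314). H2-DMa was called in 4 of the 17 alternatives: with the 8 fl/fl libraries fitted alone and without the later PTX date (edgeR adjusted p = 0.0438 and 0.0470), with DESeq2 (adjusted p = 0.0110) and with limma and voom (adjusted p = 0.00136).

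Ciita, the transactivator of class II genes, was near the limit of counting. It had 0.830, 1.85, 5.41 and 0 CPM in PTX fl/fl, against 0.219, 15.9, 0 and 9.90 CPM in vehicle fl/fl. The log2 fold change was -1.68 ± 2.15 (edgeR adjusted p = 0.723). H2-Ob, a chain of the inhibitor of H2-DM in B cells, had 0, 0.264, 0 and 0 CPM in PTX fl/fl, against 0, 4.10, 12.2 and 4.07 CPM in vehicle fl/fl. At these counts its fitted fold change depends on the offset added to the counts and is not given. H2-Oa, the other chain, had a mean of 1.19 ± 1.71 CPM in PTX fl/fl and 2.88 ± 2.65 CPM in vehicle fl/fl, and H2-DMb2 0.331 ± 0.301 and 3.62 ± 2.87 CPM.

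H2-Ke6 had 29.1, 26.8, 27.3 and 35.3 CPM in PTX fl/fl, against 100.4, 77.3, 42.9 and 75.3 CPM in vehicle fl/fl, without overlap. Its log2 fold change was -1.32 ± 0.36 (edgeR adjusted p = 0.0449). The call was lost without PTX fl/fl replicate 1, 2 or 3, without vehicle fl/fl replicate 1, 2 or 4, without the earlier PTX date, and without a filter on low counts (edgeR adjusted p of 0.0610 to 0.368). H2-Ke2 had 53.1, 53.9, 35.6 and 36.98 CPM in PTX fl/fl, against 19.8, 40.8, 42.2 and 39.7 CPM in vehicle fl/fl, a log2 fold change of 0.33 ± 0.49. Its groups overlapped.

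PTX against vehicle in CKO. In the libraries labelled CKO class II genes again had the fold changes farthest below 0, but no gene of the set was called, where 2.58% of all genes were called, 0.359% lower and 2.22% higher. At an unadjusted p under 0.05, 7 of 30 were lower and 0 higher, against 6.96% of all genes lower and 12.7% higher. DESeq2 called 5 of the 30 lower, against 3.15% of all genes, and limma with voom 8, against 10.1% of all genes. The fold change was below 0 for 24 of 30, against 49.4% of all genes, with a median of -1.05 on the log2 scale against 0.0163 over all genes. H2-DMb2 and H2-Ob, which passed the filter through vehicle libraries, are among the 24. Groups did not overlap for 8 of 30, all lower, against 4.54% of all genes that were lower without overlap and 8.91% that were higher.

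Cd74 had 23.1, 6.64, 162 and 174 CPM in PTX CKO, against 1367, 334, 313 and 316 CPM in vehicle CKO. H2-Ab1 had 26.6, 11.7, 142 and 143 CPM in PTX CKO, against 1014, 362, 212 and 306 CPM in vehicle CKO. H2-Aa had 24.4, 6.93, 134 and 179 CPM in PTX CKO, against 1036, 224, 192 and 204 CPM in vehicle CKO. In all 3 genes PTX lay below vehicle in every library, and a single vehicle library, replicate 1, was the highest by a wide margin. H2-Eb1 had 19.6, 11.01, 114 and 103 CPM in PTX CKO, against 903, 301, 145 and 144 CPM in vehicle CKO, in the same pattern. The log2 fold changes of Cd74, H2-Ab1, H2-Aa and H2-Eb1 were -2.67 ± 1.06, -2.55 ± 1.01, -2.27 ± 1.04 and -2.59 ± 0.99 (edgeR adjusted p = 0.179, 0.176, 0.242 and 0.167). H2-DMa had 4.04, 7.59, 11.7 and 0.119 CPM in PTX CKO, against 55.3, 44.3, 19.05 and 32.4 CPM in vehicle CKO. Its log2 fold change of -2.69 ± 0.84 had the lowest edgeR adjusted p of the set, 0.0922. H2-DMb1 had 5.32, 0.475, 9.69 and 0 CPM in PTX CKO, against 60.7, 12.2, 15.98 and 38.9 CPM in vehicle CKO.

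The class I genes of CKO were likewise not called. B2m had 1649, 615, 2263 and 1338 CPM in PTX CKO, against 2153, 2225, 2763 and 2540.4 CPM in vehicle CKO, and here PTX replicate 3 overlapped the vehicle libraries. H2-K1 had 386, 196, 543 and 489.8 CPM in PTX CKO, against 529, 671, 590.0 and 706 CPM in vehicle CKO. H2-D1 had 574, 449, 1692 and 1429 CPM in PTX CKO, against 1314, 1643, 2244 and 2459 CPM in vehicle CKO. At least 1 later PTX library again reached the vehicle range in all 3 genes. The log2 fold changes of B2m, H2-K1 and H2-D1 were -0.72 ± 0.37, -0.63 ± 0.36 and -0.89 ± 0.46 (edgeR adjusted p = 0.296, 0.36 and 0.305). H2-Q10 had 0.0985, 0.285, 48.1 and 46.2 CPM in PTX CKO, against 57.6, 58.98, 73.5 and 112 CPM in vehicle CKO. H2-T23 had 14.5, 12.1, 103 and 88.8 CPM in PTX CKO, against 97.9, 126, 177 and 224 CPM in vehicle CKO. Both had 2 very low libraries, those of the earlier PTX date. H2-T24 had 4.92, 5.79, 20.6 and 10.4 CPM in PTX CKO, against 7.63, 23.8, 70.7 and 50.6 CPM in vehicle CKO, a log2 fold change of -1.87 ± 0.69 (edgeR adjusted p = 0.146).

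Among the processing genes, Psmb9 had 11.3, 8.45, 29.2 and 6.09 CPM in PTX CKO, against 38.7, 30.99, 32.1 and 71.8 CPM in vehicle CKO, without overlap (log2 fold change -1.66 ± 0.65, edgeR adjusted p = 0.168). Psmb8 and Psmb10 had log2 fold changes of -0.61 ± 0.30 and 0.42 ± 0.42. Tap1 had 32.8, 26.1, 53.8 and 79.1 CPM in PTX CKO, against 40.5, 17.04, 49.3 and 42.9 CPM in vehicle CKO, a log2 fold change of 0.36 ± 0.56. That of Tap2 was -0.50 ± 0.38 and that of Tapbp -0.48 ± 0.26. Ciita had 0, 0, 5.57 and 3.46 CPM in PTX CKO, against 0.561, 0, 0.256 and 6.77 CPM in vehicle CKO, and H2-Ob had 0, 0, 1.75 and 0 CPM in PTX CKO, against 0, 16.7, 17.6 and 0 CPM in vehicle CKO. H2-Ke6 had 44.3 ± 19.6 CPM in PTX CKO and 55.9 ± 9.65 CPM in vehicle CKO, a log2 fold change of -0.33 ± 0.36, and H2-Ke2 had 34.2 ± 19.9 and 26.9 ± 5.84 CPM.

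**Figure D2:**
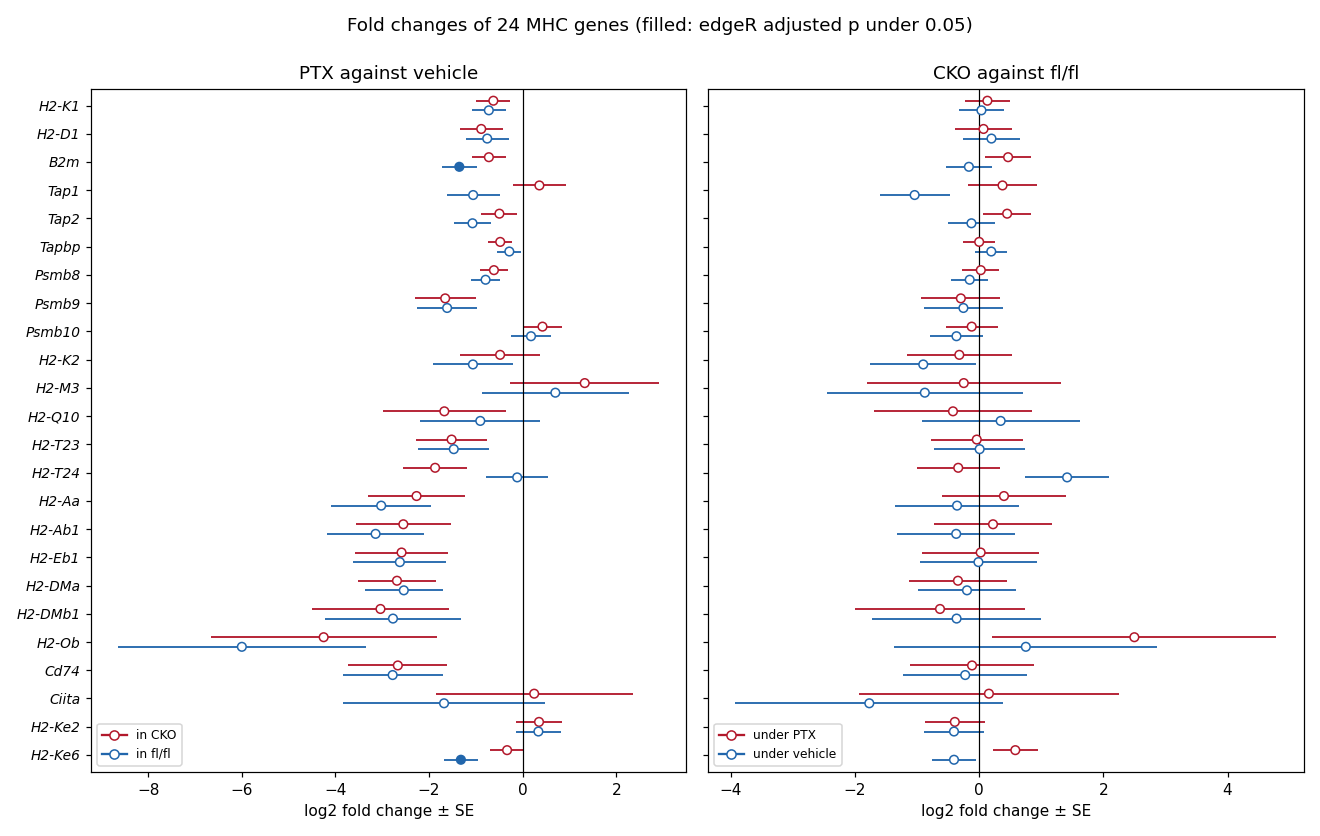
Log2 fold changes with their standard errors for 24 genes, PTX against vehicle on the left (red in CKO, blue in fl/fl) and CKO against fl/fl on the right (red under PTX, blue under vehicle); filled points are past an edgeR adjusted p of 0.05. Only B2m and H2-Ke6 in fl/fl are filled, the class II chains lie farthest left in the left panel, and the point of H2-Ob rests on few counts.

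Class I against class II. Summed over 30 heavy chain genes, of which 24 had a count, class I had 833, 768, 2159 and 2184 CPM in PTX fl/fl, against 3116, 3627, 1731 and 1709 CPM in vehicle fl/fl. Summed over 10 class II chain genes, of which 8 had a count, class II had 19.9, 70.4, 507 and 244 CPM in PTX fl/fl, against 1788, 2033, 533 and 2099 CPM in vehicle fl/fl. In CKO the class I sums were 999, 682, 2438 and 2094 CPM after PTX, against 2041, 2569.9, 3162 and 3581 CPM after vehicle. The class II sums in CKO were 79.9, 38.1, 417 and 425 CPM after PTX, against 3073, 959, 602 and 729 CPM after vehicle. The log2 ratio of the class I to the class II sum, in which library size cancels, was 5.39, 3.45, 2.09 and 3.16 in PTX fl/fl, against 0.80, 0.84, 1.70 and -0.30 in vehicle fl/fl, without overlap. In PTX CKO it was 3.64, 4.16, 2.55 and 2.30, against -0.59, 1.42, 2.39 and 2.30 in vehicle CKO, where the later PTX libraries and the later vehicle libraries met. A vehicle library in each genotype label had more class II than class I counts, and no PTX library did. The sums were chosen as a description and carry no test.

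**Figure D3:**
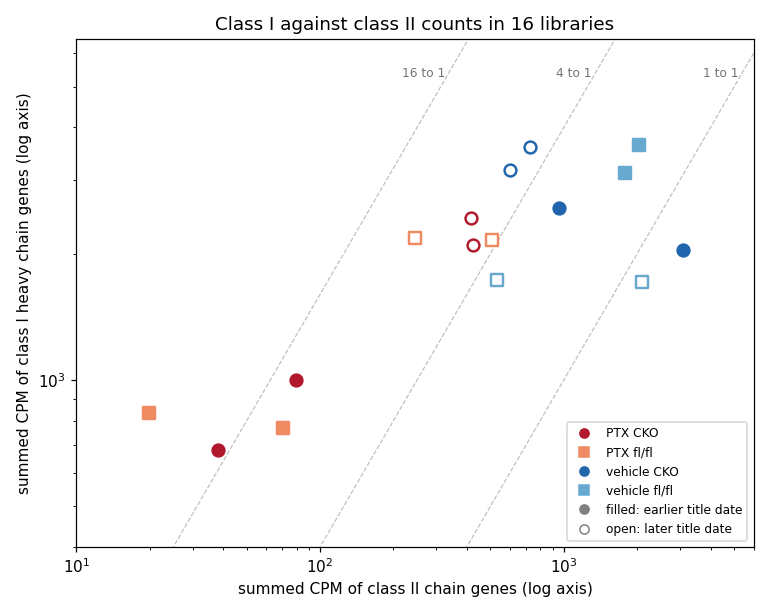
Summed CPM of class I heavy chain genes (vertical, log axis) against summed CPM of class II chain genes (horizontal, log axis) in the 16 libraries; colours and shapes are groups, filled points the earlier and open points the later title date, and dashed lines are ratios of 16, 4 and 1. The 4 earlier PTX libraries lie at the lower left with class II sums of 19.9 to 79.9 CPM, and the lowest vehicle library has 533 CPM.

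The title dates. The 2 PTX dates differed for many of these genes, and this was looked at after the levels had been seen. The later PTX libraries lay above the earlier ones without overlap for 12 of the 30 genes tested, against 9.75% of all genes, and below them for 1 (H2-Ke2), against 12.7% of all genes. The 12 were Cd74, H2-Aa, H2-Ab1, H2-D1, H2-Eb1, H2-K1, H2-K2, H2-Q10, H2-Q6, H2-Q8, H2-T23 and Tap1. Between the 2 vehicle dates, 0 lay above, against 1.94% of all genes, and 1 (Tap2) below, against 0.754%. H2-D1 had 1380.3 to 1692 CPM on the later PTX date, 449 to 574 CPM on the earlier one and 1052 to 2459 CPM in the vehicle libraries. Cd74 had 126 to 241 CPM on the later PTX date, 6.64 to 23.1 CPM on the earlier one and 291 to 1367 CPM in the vehicle libraries. Cd74, H2-DMa and H2-Eb1 were the 3 of 30 for which the later PTX date also lay below all 8 vehicle libraries, against 1.45% of all genes. The earlier PTX date did so for 15 of 30, against 10.9%. The fold changes differed by the PTX date left out. Without the earlier date the log2 fold change of H2-D1 in fl/fl was -0.24, and without the later date -1.62 (edgeR adjusted p = 0.93 and 0.0267). For H2-Q10 these were -0.000885 and -4.08 (edgeR adjusted p = 1 and 0.00663). For Cd74 they were -1.92 and -5.51 (edgeR adjusted p = 0.368 and 0.00588).

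**Figure D4:**
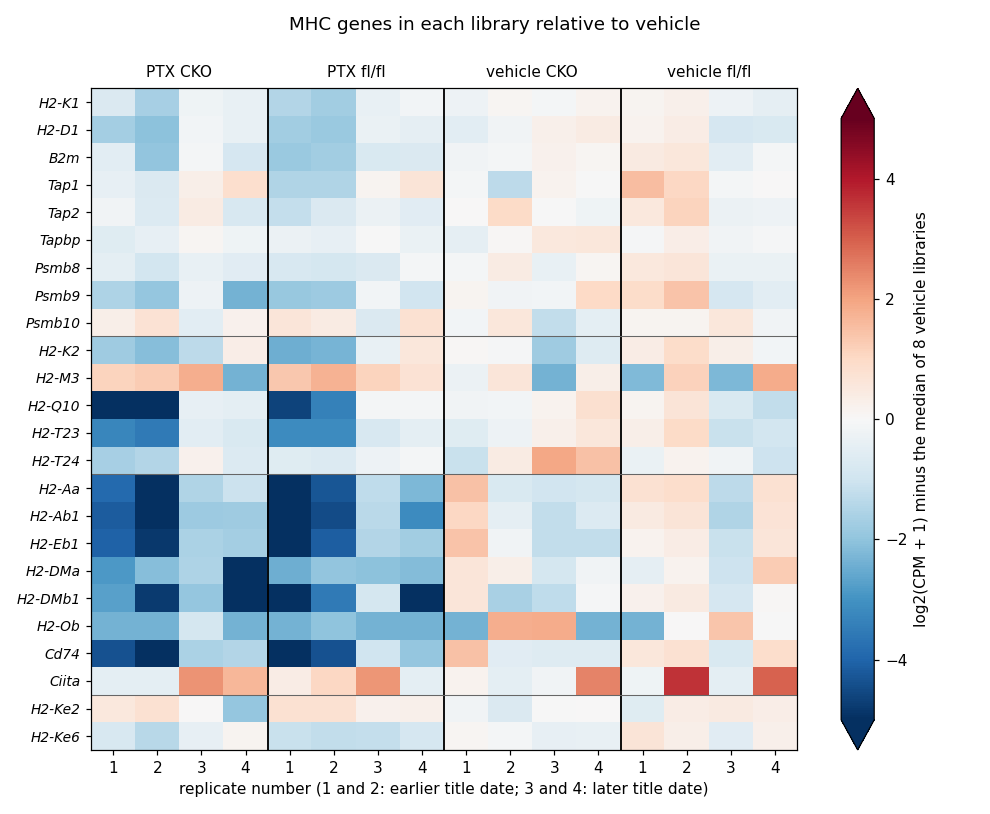
Log2(CPM + 1) of 24 genes (rows, grouped by role) in each library (columns, grouped by treatment and genotype label) minus the median of the 8 vehicle libraries; blue is lower, red higher, and the colour scale ends at 5 in either direction. The first 2 columns of each PTX group, the earlier title date, are bluer than the last 2 for H2-Q10, H2-T23, H2-Aa, H2-Ab1 and H2-Eb1. For the class II chains H2-DMa, H2-DMb1 and H2-Ob the PTX dates overlap.

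All marker sums but that of sensory neurons had lower medians in the PTX groups. Those of macrophages, neutrophils, and T and NK cells did not overlap between the PTX dates. The T and NK cell sums were 0.0985 to 6.39 CPM on the earlier and 18.7 to 78.7 CPM on the later PTX date. Sensory neuron sums did not overlap either, but in the opposite direction (18307 to 24508 CPM on the earlier and 10371 to 13783 CPM on the later PTX date). The 16 macrophage markers in the tables summed to 83.9 to 7464 CPM in PTX CKO (median 2965), 479 to 7350 CPM in PTX fl/fl (median 2553), 8914 to 18106 CPM in vehicle CKO (median 13753) and 6157 to 17814 CPM in vehicle fl/fl (median 13338). By date they summed to 4223 to 7464 CPM on the later PTX date and 83.9 to 884 CPM on the earlier one. None of the 16 was at 0 throughout a group. After PTX 2 were called lower in fl/fl and 0 in CKO, against 1.76 and 0.359% of all genes. Their median fold changes were -2.56 and -2.20 on the log2 scale. More markers of other lists were called lower, against the same shares of all genes. In fl/fl these were 6 of 10 fibroblast, 6 of 11 satellite glia and 6 of 9 myelinating Schwann cell markers. In CKO they were 3, 1 and 5 in the same order. Of the neutrophil markers 0 were called in either genotype label. The 11 neutrophil markers had medians of 79453 CPM on the later and 3002 CPM on the earlier PTX date. The 10 dendritic cell markers had medians of 21.7 CPM in PTX CKO, 17.2 CPM in PTX fl/fl, 51.3 CPM in vehicle CKO and 115 CPM in vehicle fl/fl. Within vehicle CKO the class II and macrophage sums ran in different orders: replicates 1 and 2 had the higher class II sums (3073 and 959 CPM) and the lower macrophage sums, and replicate 2 had 0.332 CPM of the dendritic cell markers. Lyz2 had the highest level of the 16 macrophage markers there (5163 to 12211 CPM), so the macrophage sum follows it most. The neutrophil sums were also lower in vehicle CKO replicates 1 and 2 (67561 and 116647 CPM) than in replicates 3 and 4 (211593 and 221189 CPM). Whether Lyz2 counts there came from macrophages or neutrophils was not tested. Csf1r ranged from 44.9 to 943 CPM and C1qc from 42.8 to 434 CPM in vehicle CKO. Whether such markers ran in the order of the class II sums was not tested. The dendritic cell, B cell, satellite glia, endothelial, fibroblast and myelinating Schwann cell sums overlapped between the PTX dates. Among the 8 B cell markers Pax5 and Blk had no count in any group. Of the 14 sensory neuron markers, 12 were called higher after PTX in fl/fl and 9 in CKO, against 3.20 and 2.22% of all genes. The part of these cells in the MHC levels was not tested.

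CKO against fl/fl. The comparison asks whether loss of Ltbr in Nav1.8 neurons goes with a change of these genes. Under PTX no gene of the set was called, as was no gene at all (0% of 14200), and 0 of 30 had an unadjusted p under 0.05, where 1.87% of all genes had. DESeq2 and limma with voom also called none of the set. Leaving out H2-Ob, whose counts are too few, the fold changes ran from -1.19 (H2-Q6) to 1.65 (H2-Q8) on the log2 scale. The median of all 30 was -0.02, and no gene's groups stood apart, where 0.690% of all genes stood apart higher and 1.37% lower. Under PTX, B2m averaged 1466 ± 686 CPM in CKO and 1061 ± 433 CPM in fl/fl (SD, n = 4 each), a log2 difference of 0.47 ± 0.37. H2-K1 averaged 404 ± 153 CPM in CKO and 368 ± 189.9 CPM in fl/fl, a log2 difference of 0.13 ± 0.36. Cd74 averaged 91.6 ± 89.0 CPM in CKO and 99.2 ± 108 CPM in fl/fl, a log2 difference of -0.11 ± 1.00. H2-Ab1 had a log2 difference of 0.22 ± 0.95, H2-Aa of 0.40 ± 1.00, H2-Eb1 of 0.02 ± 0.94 and H2-DMa of -0.34 ± 0.79, all smaller than their standard errors. Psmb8, Psmb9 and Psmb10 had log2 differences of 0.03 ± 0.30, -0.29 ± 0.63 and -0.12 ± 0.42, and Tap1, Tap2 and Tapbp of 0.38 ± 0.56, 0.45 ± 0.38 and 0.00 ± 0.26. Within the later date alone B2m differed by 0.35 and H2-D1 by 0.15 on the log2 scale, and within the earlier date alone by 0.83 and 0.01. The lowest edgeR adjusted p of a named gene within a date was 0.788.

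Under vehicle the genotype labels gave 0 called genes of the set, against 0.0211% of all genes, and 0 with an unadjusted p under 0.05, against 4.61% of all genes. DESeq2 and limma with voom again called none of the set. H2-DMb2 was the 1 gene whose groups stood apart, by less than the rounding of the values shown, against 1.68% of all genes in that direction and 0.810% in the other, with 0, 0, 0 and 1.15 CPM in vehicle CKO, against 3.28, 7.73, 1.15 and 2.33 CPM in vehicle fl/fl. H2-DMb2 passed the filter through the vehicle fl/fl libraries, so its lower level in vehicle CKO was favoured in advance. It shares 25.9% of its windows with another gene, and its log2 difference was -3.59 ± 1.94 (edgeR adjusted p = 1). H2-T24 had 7.63, 23.8, 70.7 and 50.6 CPM in vehicle CKO, against 13.9, 20.02, 15.3 and 7.98 CPM in vehicle fl/fl, a log2 difference of 1.42 ± 0.68 (edgeR adjusted p = 1). Tap1 had 40.5, 17.04, 49.3 and 42.9 CPM in vehicle CKO, against 131, 90.8, 41.2 and 44.9 CPM in vehicle fl/fl, a log2 difference of -1.04 ± 0.57 (edgeR adjusted p = 1). Within the later date alone the log2 difference of Tap1 was 0.14, and within the earlier date alone -1.94. H2-K1, H2-D1 and B2m had log2 differences of 0.04 ± 0.36, 0.20 ± 0.46 and -0.17 ± 0.37. Here the dates had opposite signs: within the later date alone these genes differed by 0.43, 1.17 and 0.46, and within the earlier date alone by -0.27, -0.61 and -0.66. H2-T23 differed by 1.47 within the later date and by -1.08 within the earlier one. Marker sums of neutrophils and macrophages had the same order by date. On the later date the neutrophil markers summed to 211593 and 221189 CPM in vehicle CKO, against 73419.96 and 75647 CPM in vehicle fl/fl, and on the earlier date to 67561 and 116647 CPM in vehicle CKO, against 200375 and 188973 CPM in vehicle fl/fl. The macrophage markers summed to 17078 and 18106 CPM in vehicle CKO on the later date, against 6157 and 10334 CPM in vehicle fl/fl, and to 10428 and 8914 CPM in vehicle CKO on the earlier date, against 16343 and 17814 CPM in vehicle fl/fl. Their part in the sign of the differences was not tested. None of these was called within a date, the lowest edgeR adjusted p of a named gene being 0.0927. Cd74, H2-Aa, H2-Ab1, H2-Eb1 and H2-DMa had pooled log2 differences of -0.22 ± 1.00, -0.36 ± 1.00, -0.37 ± 0.95, -0.01 ± 0.94 and -0.20 ± 0.79.

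The interaction, the PTX effect in CKO minus that in fl/fl, was called for 0 of 30 genes, against 0.00704% of all genes, and 0 had an unadjusted p under 0.05, against 3.35% of all genes. DESeq2 and limma with voom called none of the set either. B2m passed the threshold in fl/fl and not in CKO, but its interaction was 0.63 ± 0.52 (edgeR adjusted p = 1). For H2-Ke6 it was 0.99 ± 0.51, for Tap1 1.41 ± 0.80 and for H2-T24 -1.75 ± 0.95 (edgeR adjusted p = 1 for all 3). The class II chains H2-Aa, H2-Ab1 and H2-Eb1 had interactions of 0.76 ± 1.41, 0.59 ± 1.35 and 0.04 ± 1.33.

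Other genes of the class I pathway were given by a list of 40 (chaperones, constitutive proteasome subunits, interferon signalling, class I-like molecules), of which 35 were tested. After PTX in fl/fl 1 was called higher and 1 lower, against 3.20% of all genes higher and 1.76% lower, so the list is near these shares. Fcgrt, the heavy chain of the neonatal Fc receptor, which also pairs with B2m, averaged 12.99 ± 9.46 CPM in PTX fl/fl and 124 ± 45.6 CPM in vehicle fl/fl (log2 fold change -3.25 ± 0.63, edgeR adjusted p = 0.00987). Stat2, a signal carrier of type I interferon, rose to 81.2 ± 33.8 CPM in PTX fl/fl, against 19.8 ± 8.26 CPM in vehicle fl/fl (log2 fold change 2.03 ± 0.44, edgeR adjusted p = 0.0152). In CKO 1 was called higher, against 2.22% of all genes. This was Psmf1, an inhibitor of the proteasome, which averaged 81.9 ± 20.4 CPM in PTX CKO and 28.5 ± 5.63 CPM in vehicle CKO (log2 fold change 1.52 ± 0.30, edgeR adjusted p = 0.0177). The list medians were -0.19 in fl/fl and -0.14 in CKO on the log2 scale, against -0.0074 and 0.0163 over all genes. Nlrc5, the class I transactivator, averaged 13.02 ± 17.4 CPM in PTX fl/fl and 10.5 ± 6.15 CPM in vehicle fl/fl. In CKO it averaged 6.42 ± 2.78 CPM after PTX and 17.4 ± 16.1 CPM after vehicle.

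Of 26 other class II pathway genes (RFX and NF-Y factors, lysosomal proteases, costimulators), 23 were tested and 1 was called, the same in both genotype labels. It was called higher, as were 3.20% of all genes in fl/fl and 2.22% in CKO. Ctsl, the protease cathepsin L that cuts the invariant chain in thymic epithelium, averaged 1454 ± 642 CPM in PTX fl/fl and 379 ± 205 CPM in vehicle fl/fl (log2 fold change 1.94 ± 0.41, edgeR adjusted p = 0.0141). In CKO it averaged 1333 ± 524 CPM in PTX CKO and 400.2 ± 22.9 CPM in vehicle CKO (log2 fold change 1.74 ± 0.41, edgeR adjusted p = 0.0333). Ctss, the cathepsin that does so in antigen-presenting cells and also a macrophage marker above, averaged 17.8 ± 22.7 CPM in PTX fl/fl and 207 ± 115 CPM in vehicle fl/fl (log2 fold change -3.54 ± 1.15, edgeR adjusted p = 0.0946). Cd83, which stabilises class II at the surface of dendritic cells, averaged 18.0 ± 18.7 CPM in PTX fl/fl and 131 ± 94.6 CPM in vehicle fl/fl (log2 fold change -2.86 ± 0.92, edgeR adjusted p = 0.0892). The medians of this list were -0.58 in fl/fl and -0.63 in CKO on the log2 scale. No gene of either list was called between the genotype labels. The most abundant genes of the lists were Pdia3 and Canx, chaperones of heavy chain folding, and Ctsd and Ctsb, lysosomal proteases. Under PTX their log2 differences between CKO and fl/fl were 0.02 ± 0.23, 0.04 ± 0.28, -0.14 ± 0.23 and -0.08 ± 0.35, and under vehicle 0.04 ± 0.23, -0.19 ± 0.28, 0.28 ± 0.23 and -0.23 ± 0.35.

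The remaining 21 genes of the set did not pass the filter. H2-Ea-ps, H2-Eb2, H2-M10.1, H2-M10.3, H2-M9, H2-Q7, H2-Q9 and H2-T9 had no count in any library. H2-T22 had 66 counts over 15 libraries. H2-M2 had 98 counts, all in a single vehicle CKO library. H2-M11 and H2-M10.2 had 70 and 35 counts, and the others 2 to 18. H2-Q7 and H2-T22 share 26.5 and 53.5% of their windows with another gene. Whether those windows lie in overlapping transcripts or in separate genes, from which no unique read can come, was not tested. Of the genes that passed the filter at low levels, H2-Q6, H2-Q8, H2-T10, H2-Gs10 and H2-Oa averaged under 5 CPM in every group.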

How the data were processed

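The authors deposited unnormalized counts per gene for 16 libraries. Per the labels' protocols, stranded mRNA libraries were prepared from about 500 ng of RNA and 50-base single ends were read. Per the submitters' processing notes, bcl2fastq, TopHat2, HTSeq and mm9 were used, none with a stated version. Each library is 1 table, grouped by its treatment label and title, and 0 columns of other series were used.

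Genes were filtered (filterByExpr, 14200 left), and TMM factors and a robust quasi-likelihood model over all 16 libraries were computed in edgeR 4.0.16 under R 4.3.3 (12 residual degrees of freedom), with two-sided tests adjusted by Benjamini-Hochberg over all genes and 0.05 as threshold. A common biological coefficient of variation of 0.939 was estimated. CPM used TMM-scaled library sizes. A standard error is the fold change divided by the root of its F statistic. Counting errors are small at 7906504 to 11668007 gene counts per library, and 32.9 to 43.5% of counted alignments were assigned to genes. No 2 libraries of a group held identical counts, and chi-square per degree of freedom was 20.0 or more for every pair of replicates. The procedure was run on simulated data, but the requirement it had to meet was set at a dispersion below that estimated here. It therefore does not show the power or the error rate at the spread of these libraries.

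The genes, marker lists and pathway lists were chosen with earlier results of these data known. Named with values were 15 core genes, every other gene of the set that averaged 5 CPM or more in a group and every called gene, and of the pathway lists up to 4 called genes or, where none was called, the 2 most abundant; Psmb6, Psmb5, Nlrc5, Ctss and Cd83 were named after their values were seen. Marker lists of T and NK cells, endothelium, fibroblasts, satellite glia and myelinating Schwann cells were summed too. Their medians in PTX CKO, PTX fl/fl, vehicle CKO and vehicle fl/fl were 11.7, 16.7, 41.2 and 47.1 CPM, 79.0, 65.6, 172 and 154 CPM, 1180, 693, 2740 and 3037 CPM, 14121, 7408, 25123 and 28745 CPM, and 2404, 1899, 7413 and 6661 CPM in that order.

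Whether replicate numbers pair libraries was checked from the correlation of deviations from group means. Between the genotype labels under PTX the correlations were 0.37, 0.40, 0.39 and 0.22. Libraries of the same number also share a title date there, so the date can raise these correlations. Of the libraries of both labels, 6 correlated best with the library of their own number. Whether that is more than shared dates give was not tested. No call of the set changed in that comparison under a replicate block. Alternatives were RLE scaling, no or a stricter filter (5 CPM in 4 libraries), DESeq2 1.42.0, limma 3.58.1 with voom and quality weights, the compared groups alone, blocks for replicate number or title date, and leaving out libraries or dates. The overlap of title dates was examined after seeing the data.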

Additional observations from a re-analysis of the deposited data

Results flagged for a closer look

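In 9 of 96 sets of 4 libraries (24 genes in 4 groups) the highest or lowest library stood far from the others by Dixon's test at the 95% level. The test marks about 1 set in 20 by chance if values are independent and normally spread. These sets share libraries and dates, so 9 of 96 cannot be read as an excess. A set with a count in a single library, as for H2-Ob below, is always marked. Vehicle CKO replicate 1 had 1370 CPM (rounded) of Cd74, where the other 3 had 313 to 334 CPM, and 1040 CPM (rounded) of H2-Aa, where the others had 192 to 224 CPM. Vehicle fl/fl replicate 3 was the low one for H2-Aa, with 151 CPM against 637 to 690 CPM in the other 3. Vehicle CKO replicate 4 had 6.77 CPM of Ciita, where the others had 0 to 0.561 CPM, and vehicle CKO replicate 2 had 217 CPM of Tap2, where the others had 95.8 to 113 CPM. PTX fl/fl replicate 3 had 21.3 CPM of H2-DMb1, where the others had 0 to 2.55 CPM. Vehicle fl/fl replicate 1 had 19.8 CPM of H2-Ke2, where the others had 39.7 to 42.2 CPM. H2-Ob was counted in a single library of each PTX group, at 1.75 CPM in PTX CKO replicate 3 and 0.264 CPM in PTX fl/fl replicate 2. No cause was tested for any of these.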

How the results depend on the processing

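For PTX against vehicle in fl/fl, the count of genes of the set called lower was 2 (B2m and H2-Ke6). It was 1 without a filter on low counts (B2m), 7 with DESeq2, 17 with limma and voom, 0 with a replicate block (edgeR adjusted p = 0.0783 for B2m and 0.0796 for H2-Ke6), 0 without the earlier PTX date and 15 without the later PTX date, and leaving out 1 library gave 0 to 2. With the compared groups alone it stayed at 2, but these were H2-DMa and H2-Ke6. For PTX against vehicle in CKO the count was 0, but 5 with DESeq2, 8 with limma and voom and 9 without the later PTX date, and 0 without any single library. The cause of these differences was not tested. Over all genes and in either direction, 704 were called in fl/fl and 366 in CKO, where 14200 entered the fit. With the same 14200 this became 5283 and 2686 with limma and voom, 1517 and 1331 with DESeq2, and 361 and 126 with the replicate block. It was 475 of 13270 and 159 of 12734 with the compared groups alone. Without the earlier PTX date it was 4 and 0 of 14702, and without the later one 1923 and 2077 of 14891. As these totals mix directions, they are not the share called lower. Leaving out 1 library gave 177 to 845 calls over all genes in fl/fl and 30 to 549 in CKO. Between the genotype labels, DESeq2 called 10 genes of all under PTX (edgeR 0) and 83 under vehicle (edgeR 3), and 50 for the interaction (edgeR 1). Between genotype labels and for the interaction, no gene of the set was called under any alternative run. The replicate numbers did not pair PTX with vehicle libraries (correlations of -0.18 to -0.14 in fl/fl and -0.04 to 0.08 in CKO) or the genotype labels under vehicle (-0.03 to 0.03), and the block is given there for its effect on counts only. A fit with title date as a block was possible for the genotype comparisons only. The log2 ratio of class I to class II moved by less than 1 SD in each group with other genes in the sums, and scaling cancels in it. Levels under about 1 CPM rest on a few counts.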

Other observations

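H2-D1 made up 57.5, 65.8, 69.4 and 68.2% of the heavy chain CPM in PTX CKO and 67.1, 68.2, 68.8 and 63.2% in PTX fl/fl, against 64.4, 63.9, 70.97 and 68.7% in vehicle CKO and 68.4, 66.2, 60.8 and 63.9% in vehicle fl/fl. The log2 ratio of the heavy chain sum to B2m ranged from -0.72 to 0.65 in PTX CKO and 0.09 to 0.60 in PTX fl/fl, against -0.08 to 0.50 in vehicle CKO and -0.41 to 0.04 in vehicle fl/fl, so the 2 fl/fl groups did not overlap in it. Cd74 relative to the sum of the class II chains was 0.175 to 0.410 in PTX CKO and 0.323 to 0.514 in PTX fl/fl, against 0.348 to 0.520 in vehicle CKO and 0.3995 to 0.547 in vehicle fl/fl. These ratios were computed after the levels had been seen, mix genes of different length and carry no test.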
